A study of Mus musculus with 7 samples.

Results

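Ependymal multiciliated cells, the ciliated lining of the brain ventricles, were selected in 7 single-cell RNA libraries made from mouse brain in droplets (10x Chromium, 3' ends) as cells with at least 4 unique molecular identifiers (UMIs, counted RNA molecules) summed over Rsph1, Ccdc153, Tmem212, Dynlrb2 and Meig1. Only cells with at least 500 detected genes and at most 10% mitochondrial UMIs were considered. The rule selected 167 of 21002 cells, or 0.795%. Because these 5 ciliary genes chose the cells, their own levels, and every comparison of the selected cells with cells that lack the panel, are given as descriptions without a test.

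The series followed oligodendrocyte precursor populations over postnatal development and used whole dissected tissue, so the ependymal cells came along with the region taken. The cortex libraries at P2, P7, P15 and P60 (postnatal days) were cut dorsal to the lateral ventricles, and held grey matter, white matter and the ventricular-subventricular zone (V-SVZ), which borders the ventricle wall. At P60 a grey matter library was taken above the white matter, and a white matter library from just above the ventricles, with corpus callosum and V-SVZ. The P7 SVZ library came from dorsal and lateral V-SVZ of C57BL/6 mice, and the other 6 libraries from CD1 mice; no mouse carried a labelled transgene and none was treated. P2, P7 and P15 are called early postnatal and P60 adult, which gives 4 early and 3 adult libraries. The labels do not say whether animals were pooled or whether libraries came from separate animals, so p-values measure the spread between these libraries only.

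Multiciliated ependymal cells carry tufts of motile cilia whose beating moves cerebrospinal fluid along the ventricle wall. Each cilium is built on an axoneme, a ring of doublet microtubules around a central pair, with dynein motors on the doublets and radial spokes that link the ring to the centre. In the mouse these cells descend from radial glia: the regulators Gmnc and Mcidas start the programme, deuterosomes (organised by Deup1) mass-produce the basal bodies, and Foxj1 with RFX factors switches on the axonemal genes.

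Promoters of 6 genes on which the results turn are printed, because the regulators named above act on such sequences: the selection genes Dynlrb2 and Ccdc153, the axonemal gene Fam183b, and Ccno, Mcidas and Deup1 of the early programme. These were chosen because they hold a match: 2 of the 4 selection genes with a promoter entry held one, as did 3 of the 5 early programme genes, and Tmem212, Meig1, Gmnc and Cdc20b held none. Each is the 250 bases before the RefSeq start site (GRCm38.p6), and is written 5′ to 3′ on the gene's own strand as RefSeq gives it. The bases after the start were found in an annotated transcript of the same gene for all but Deup1. Position and strand of the Deup1 stretch therefore rest on the RefSeq entry alone. Capitals mark matches, on either strand, to GTTGCC or GTTGCTA, core letters of the X-box that RFX factors bind.
Dynlrb2, chr8:116504765-116505014, plus strand: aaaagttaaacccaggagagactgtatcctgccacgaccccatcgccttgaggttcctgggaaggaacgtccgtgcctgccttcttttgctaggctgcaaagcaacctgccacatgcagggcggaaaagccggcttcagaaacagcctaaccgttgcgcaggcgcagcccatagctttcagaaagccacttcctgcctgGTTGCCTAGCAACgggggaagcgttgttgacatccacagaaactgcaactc
Ccdc153, chr9:44240427-44240676, plus strand: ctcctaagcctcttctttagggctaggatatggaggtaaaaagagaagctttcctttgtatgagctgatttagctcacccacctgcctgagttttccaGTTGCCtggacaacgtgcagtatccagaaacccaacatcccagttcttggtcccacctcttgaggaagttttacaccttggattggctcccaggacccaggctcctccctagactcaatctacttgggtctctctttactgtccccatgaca
Fam183b, chr11:58801961-58802210, minus strand: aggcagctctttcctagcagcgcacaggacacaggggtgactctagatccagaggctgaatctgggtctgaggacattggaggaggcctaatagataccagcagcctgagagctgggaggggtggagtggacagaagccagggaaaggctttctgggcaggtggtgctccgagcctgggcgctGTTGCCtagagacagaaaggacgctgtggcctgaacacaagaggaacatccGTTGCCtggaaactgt
Ccno, chr13:112987552-112987801, plus strand: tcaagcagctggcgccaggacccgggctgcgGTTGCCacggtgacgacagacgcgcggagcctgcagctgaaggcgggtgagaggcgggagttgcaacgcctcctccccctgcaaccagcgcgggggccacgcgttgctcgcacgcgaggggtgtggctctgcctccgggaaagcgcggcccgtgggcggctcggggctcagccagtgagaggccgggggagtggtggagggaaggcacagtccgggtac
Mcidas, chr13:112993618-112993867, plus strand: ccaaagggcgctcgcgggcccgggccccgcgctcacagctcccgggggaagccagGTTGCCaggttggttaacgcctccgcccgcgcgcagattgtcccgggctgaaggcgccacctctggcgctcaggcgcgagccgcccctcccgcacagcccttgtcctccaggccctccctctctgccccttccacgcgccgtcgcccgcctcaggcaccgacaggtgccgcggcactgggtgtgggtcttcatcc
Deup1, chr9:15627847-15628096, minus strand: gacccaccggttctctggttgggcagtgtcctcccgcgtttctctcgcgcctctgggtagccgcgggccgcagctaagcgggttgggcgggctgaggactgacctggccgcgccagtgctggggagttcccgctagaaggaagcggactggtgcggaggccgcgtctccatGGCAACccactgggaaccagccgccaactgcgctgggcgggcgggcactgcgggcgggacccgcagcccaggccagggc
In Dynlrb2 a GTTGCC begins 51 bases before the start and is followed directly by a GTTGCTA on the other strand, 45 bases before it. Fam183b holds GTTGCC at both 67 and 16 bases before its start. The Deup1 match lies on the other strand, 79 bases before the start. Ccno, Mcidas and Cdc20b share a stretch of chromosome 13, with start sites at 112987802, 112993868 and 113035379 on the plus strand.

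Among axonemal genes 100 of 123 had a promoter entry, and 49% of those held GTTGCC or GTTGCTA within these 250 bases, against 14.7% of all 27025 genes in the table. GTTGCC alone was in 33% of axonemal promoters and 11.8% of all, and GTTGCTA in 26% and 3.71%. Radial glial genes held either in 14.3% and cell cycle genes in 16%. TGTTTAC, the forkhead letters, was in 7% of axonemal promoters and 3.54% of all. A match is a stretch of letters and was not linked to binding here.

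The number of ependymal cells was 18 of 3283 in P2 cortex, 84 of 4140 in P7 cortex, 25 of 3726 in P7 SVZ and 22 of 2867 in P15 cortex. At P60 there were 8 of 3115 in cortex, 10 of 1992 in white matter and 0 of 1879 in grey matter, which was cut away from the ventricle. These are shares of 0.548% (exact binomial 95% interval 0.325 to 0.865), 2.03% (1.62 to 2.51), 0.671% (0.435 to 0.989) and 0.767% (0.482 to 1.16) in the early libraries. The adult shares were 0.257% (0.111 to 0.505) in cortex, 0.502% (0.241 to 0.921) in white matter and 0% (0 to 0.196) in grey matter. Intervals cover counting error only.

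All 4 early shares were above all 3 adult shares, with means of 1.004% ± 0.689 (SD, n = 4) and 0.253% ± 0.251 (SD, n = 3). The difference of -0.751 percentage points gave p = 0.0571 in a two-sided exact permutation test, which is the smallest p that 4 against 3 libraries allow. P7 cortex stood apart from the other early libraries, and without it the difference was -0.409. The separation did not hold under every setting. With each cell thinned to 2000 UMIs the share in P7 SVZ was 0.203%, below 0.282% in P60 cortex and 0.500% in P60 white matter, and the difference was -0.296 (exact permutation p = 0.286). With a minimum of 8 panel UMIs P7 SVZ was at 0.349% and P2 cortex at 0.426%, both below 0.502% in white matter, and the difference was -0.402 (exact permutation p = 0.171). How much ventricle wall each piece held was not measured, so fewer ependymal cells and less wall cannot be told apart.

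Panel counts ran from the threshold of 4 up to 339 UMIs per cell, and the median differed between libraries. The median was 98.5 in P2 cortex, 10 in P7 cortex, 9 in P7 SVZ, 32 in P15 cortex, 28 in P60 cortex and 47.5 in P60 white matter. Median total UMIs per ependymal cell were 14496, 8137.5, 8939, 5252, 4101.5 and 5479 in the same order, so cells of P2 were also the deepest. Just inside the threshold, at 4 UMIs, were 27 cells, and just outside it, at 3, were 57. Between 4 and 7 UMIs lay 56 cells, 34 of them from P7 cortex and 12 from P7 SVZ, and 111 had 8 or more.

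**Figure D1:**
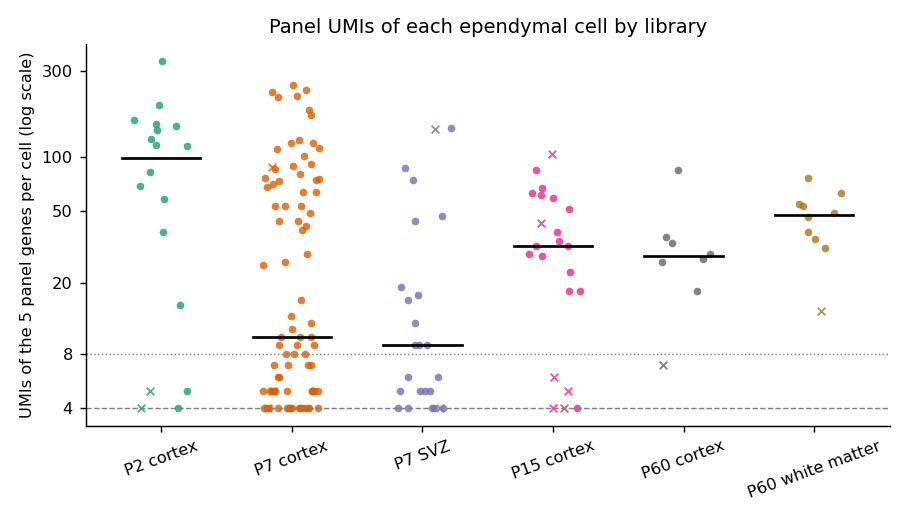
Panel UMIs (log axis) of each of the 167 ependymal cells by library; bars are medians, the dashed line is the threshold of 4 and the dotted line is 8 UMIs, and crosses mark cells carrying markers of another class. P7 cortex and P7 SVZ have a dense band of cells just above the threshold, while 14 of 18 P2 cells and nearly all P60 cells lie far above it.

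Cells that should lack these transcripts set the background of the panel. Of cells with microglial markers, 2 of 23 in P2 cortex (8.70%) and 35 of 446 in P7 cortex (7.85%) held at least 1 panel UMI. In the other 5 libraries 0.264 to 1.39% did. None held 4 or more. Median depth of those microglial cells was 10975 and 7548 UMIs in P2 and P7 cortex. Among radial precursors, cells chosen by at least 2 UMIs of Veph1, Tfap2c, Vnn1, Pter and Ptx3 and at most 1 ciliary UMI, 7.96, 21.6, 18.2 and 14.5% held that 1 panel UMI in P2 cortex, P7 cortex, the SVZ at P7 and P15 cortex.

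Markers of other classes sat in 15 ependymal cells, defined as at least 0.3% of a cell's UMIs from 1 marker list. They comprised 4 neuronal, 4 oligodendrocyte, 3 microglial, 2 precursor and 2 choroid plexus profiles. The choroid profiles were extreme: Ttr, the thyroid hormone carrier of choroid plexus, gave 8577 of 21298 UMIs in a P7 SVZ cell and 1788 of 12668 in a P60 cortex cell. In the other P60 cortex cells and in white matter Ttr was at 0, and P7 SVZ held 8579 Ttr UMIs in all. A doublet caller marked 5 ependymal cells of 298 doublets in all (1.42% of cells), and 142 barcodes occurred in more than 1 library, none of them in an ependymal cell. In P15 cortex 2 oligodendrocyte profiles held 23257 and 30703 of the 166315 ependymal UMIs, and the summed level of 12 ependymal markers was 8304 CPM with all cells of that library and 12807 CPM without its cells of other classes. These 15 cells stay in the values unless their removal is stated.

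The label was checked against 7 ependymal markers that were not used for selection (Foxj1, Fam183b, Sntn, 1110017D15Rik, Hydin, Tekt1 and Cfap126), of which 6 were at least 2-fold higher than in radial precursors in all 3 libraries compared. Foxj1, the master regulator of motile cilia, was at 865, 457, 443, 493, 340.0 and 730.1 CPM (UMIs after scaling a library's summed cells to 1000000) in P2 and P7 cortex, P7 SVZ, P15 and P60 cortex, and P60 white matter. This order of libraries is used for all further series of 6 values. In radial precursors Foxj1 was at 12, 10.2, 23.2 and 10.6 CPM in the 4 early libraries, far below every ependymal value. Hydin, a giant protein of the central pair, was at 101, 62.9, 59.5, 54.1, 227 and 119 CPM in ependymal cells and at or near 0 in radial precursors. Sntn, found at the tips of motile cilia, was low in part of the libraries, at 3.61, 62.9, 0, 132, 431 and 339.6 CPM. Summed over cells, the markers other than Sntn were present in every library. They rested on the cells of higher panel counts: in those of 4 to 7 panel UMIs Hydin was at 0 in all 4 early libraries and Foxj1 at 93.6, 66.1, 110.3 and 32.1 CPM. Those 56 cells are ependymal by the rule, and their markers do not show the label cell by cell.

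The axonemal programme was compared with radial precursors in P7 cortex, P7 SVZ and P15 cortex, the libraries with at least 20 cells of both; P2 cortex, with 18 ependymal cells, is given beside them. Ratios were computed after adding 10 CPM to both sides, and genes with too few UMIs were not measured. Over all genes outside both selection panels, 494 of 9667 were at least 2-fold higher in ependymal cells in 3 of 3 libraries, 5.11%, and 95 were at least 2-fold lower, 0.983%. Of 123 axonemal genes 105 could be measured, and 92 were at least 2-fold higher in all 3, with a median log2 ratio of 2.49 (all genes -0.04). Without the 15 cells that carry other classes' markers it was 88 genes and 2.71. Since the ciliary panel defined both cell groups, this is a description of the selected cells.

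Outer dynein arms, the motors that set beat frequency, had 12 of 14 measured genes at least 2-fold higher. Their heavy chain Dnah9 was at 82.9, 86, 78.1, 144, 113 and 119 CPM in ependymal cells and 0.86, 1.64, 1.91 and 0 CPM in radial precursors of the 4 early libraries. Dnaic2, an intermediate chain, was at 105, 95, 89.3, 54.1, 181 and 102 CPM against 0.86, 3.1, 3.82 and 1.51 CPM. Inner arms, which shape the bend, had 13 of 13 higher, among them the heavy chain Dnah12 (148, 119, 141, 216, 385 and 696 CPM, against 0, 0.548, 0.273 and 0 CPM).

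Cytoplasmic factors that pre-assemble dyneins had 8 of 12 measured genes higher. Zmynd10 was at 335, 212, 123, 132, 113 and 119 CPM against 1.29, 3.47, 2.73 and 1.51 CPM. Ruvbl1, a chaperone ATPase used by many complexes, was at 227, 146, 164, 78.2, 22.7 and 34 CPM against 67.5, 87.5, 65.2 and 40.9 CPM, a much smaller gap. Both were highest in P2 cortex, unlike the motor genes above.

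Radial spoke and nexin link genes had 18 of 19 measured genes higher. Rsph4a, a spoke head protein, was at 86.5, 123, 93, 90.2, 159 and 119 CPM against 0, 1.83, 1.91 and 0 CPM. Gas8, a nexin link subunit, was the nearest to radial precursors of those named, at 61.3, 57.8, 81.8, 78.2, 68 and 153 CPM against 31.8, 26.8, 28.9 and 19.7 CPM. The central pair had 15 of 18 higher, with Spag6l at 151, 184, 134, 138, 136 and 102 CPM against 2.58, 1.46, 1.64 and 0 CPM.

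Doublet and lumen proteins formed the largest of the axonemal lists, with 26 of 29 higher and a median log2 ratio of 3.21. Fam183b, whose promoter is printed above, was at 1067, 843, 119, 836, 861 and 1307 CPM in ependymal cells and 3.44, 7.3, 0.546 and 0 CPM in radial precursors. Tekt4, a tektin filament protein, was at 530.0, 291, 152, 228, 249 and 339.6 CPM against 1.72, 0.73, 2.46 and 3.03 CPM. Tppp3, a tubulin polymerization factor, was at 1208, 1027, 543, 1112, 1088 and 1715 CPM against 49, 25.4, 35.2 and 531 CPM. The P15 radial value of Tppp3 stood apart: 14 of the 62 radial precursors there held at least 0.3% oligodendrocyte UMIs, and the oligodendrocyte list took 64746 CPM of their sum. Without such cells the axonemal median was 2.46.

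Genes shared by primary and motile cilia stood closer to radial precursors. Intraflagellar transport, which carries cargo along every cilium, had 13 of 26 genes at least 2-fold higher (median 1.33), and BBSome and transition zone genes, the gate at the cilium base, 6 of 25 (median 1.02). Ift20 was at 746, 448, 465, 439, 385 and 577 CPM against 105, 83.6, 102 and 107 CPM. Dynlrb1, a dynein light chain used in all cells, was at 501, 325, 245 and 469 CPM in ependymal cells of the 4 early libraries and 482, 325, 323 and 433 CPM in radial precursors.

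Tubulin genes went both ways. Tubb4b, the tubulin typical of motile axonemes, was at 3133, 2478, 1428 and 1984 CPM in the 4 early libraries against 266, 443, 594 and 441 CPM in radial precursors. Tubb5, abundant in dividing and immature cells, was at 927, 317, 405 and 271 against 1521, 1432, 1118 and 942 CPM and was the only measured gene of its list that was at least 2-fold lower in all 3 libraries. Of 18 tubulins and tubulin-modifying enzymes measured, 7 were higher.

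**Figure D2:**
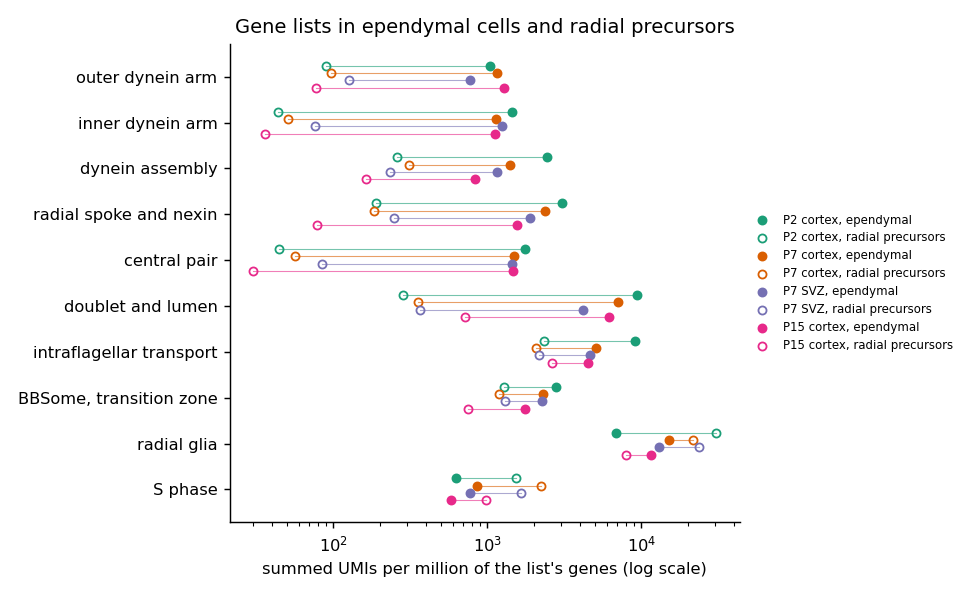
Summed CPM (log axis) of the genes of 10 lists in ependymal cells (filled) and radial precursors (open) of the 4 early libraries, by colour, with a line joining the values of 1 library. Axonemal lists lie far to the right in ependymal cells in every library, transport and transition zone lists by a smaller distance, and S phase genes lie to the left.

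The 25 genes with the highest ratios outside the panels were mostly ciliary or uncharacterized. 1110017D15Rik led, at 1265, 1049.8, 405, 1365, 1179 and 1698 CPM in ependymal cells and 8.17, 7.67, 9.28 and 0 CPM in radial precursors of the early libraries. Hdc, the enzyme that makes histamine from histidine, was among them, at 526, 361, 164, 313, 385 and 475 CPM against 0.43, 0, 0.546 and 0 CPM. Chchd10, a mitochondrial protein of the cristae, was at 2102, 1757, 1186, 2819.9, 5168 and 4822 CPM against 42.5, 83.4, 142 and 59 CPM. Both were therefore present in ependymal cells of every age sampled, although neither is an axonemal gene.

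Other genes of that group with no known axonemal role included Dmkn, Tm4sf1, Crygn and Csrp2. Tm4sf1, a tetraspanin-like membrane protein, was at 303, 783, 182, 722, 725 and 1409 CPM against 3.87, 1.83, 2.73 and 18.2 CPM. Csrp2, a LIM-domain protein, was at 988, 680.2, 609.9, 728, 703 and 560.3 CPM against 73.1, 28.7, 45.3 and 34.8 CPM. Fam183b, Foxj1 and Tekt4, described above, were also in the group. The others were Efcab10, Cfap126, Odf3b, Tctex1d4, Ppp1r32, Calml4, Dnali1, Pifo, Lrrc23 and 6 more genes with Rik symbols. Median log2 ratios of the 25 genes ran from 3.96 to 5.91.

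Metallothioneins, small metal-binding proteins, were among the abundant ependymal transcripts. Mt1 was at 7946, 4456, 3451, 6259, 7979 and 13057 CPM in ependymal cells and 790.3, 944, 1153 and 1791 CPM in radial precursors, and Mt2 at 4701, 1921, 885, 2116, 3083 and 4058 CPM against 495, 395, 305 and 651 CPM. They were the 2 of 11 measured metal and oxidative genes that were at least 2-fold higher in all 3 libraries. Surface and fluid-handling genes mostly did not separate the groups, with 2 of 24 higher: the surface antigen Cd24a, at 1157, 553, 249, 523, 612 and 917 CPM against 288, 108, 70.7 and 21.2 CPM, and the secreted protein Mia, at 115, 583, 85.5, 613, 725 and 1138 CPM against 23.6, 43.6, 7.37 and 13.6 CPM. Planar polarity genes, which orient the cilia, had 1 of 11 higher.

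Radial glial genes had 0 of 25 higher and 5 lower, with a median of -0.80. Summed, they took 6850.2, 15231, 13043 and 11508 CPM of ependymal cells and 30742, 21732, 23745 and 7955 CPM of radial precursors in the 4 early libraries, lower in ependymal cells in all but P15 cortex. The list holds the metallothionein Mt3. In P15 cortex Mt3 was at 11886 CPM in ependymal cells of 8 or more panel UMIs, 1300 CPM in those of 4 to 7 and 1104 CPM in radial precursors. The sum without Mt3 was not computed, so the P15 exception is not shown for the other genes of the list. Hes5, a Notch target, was at 72.1, 153, 807, 12, 0 and 0 CPM against 752, 499.9, 1865 and 227 CPM, and its ependymal value was highest in P7 SVZ. Sox2, kept by many glia, was at 169, 308, 405, 373, 272 and 391 CPM against 443, 373, 557 and 191 CPM.

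S phase genes had 0 of 33 higher and 8 lower, and G2 and M phase genes 1 of 44 higher and 17 lower, the 1 being Tubb4b, which is also on the tubulin list. Pclaf, a replication clamp partner, was at 0, 12.8, 7.44 and 0 CPM against 117, 191, 172 and 87.8 CPM. Ccna2, the cyclin of S and G2 phase, was at 3.61, 5.13, 0 and 6.01 against 54.6, 97.7, 58.1 and 56 CPM. Thrsp, a lipid synthesis regulator, had the lowest median ratio of the genes named, at 28.8, 65.5, 3.72 and 12 against 217, 236, 148 and 257 CPM.

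Cells near the threshold were described apart from the others. Summed axonemal RNA outside the panel was 1725, 3748, 3579 and 1155 CPM in the cells of 4 to 7 panel UMIs of the 4 early libraries. In those of 8 or more it was 25642, 20564, 14958, 19186 CPM, and in radial precursors 912, 1056, 1135, 1104 CPM. Low-panel cells lay nearer to radial precursors than to high-panel cells in each of the 4 libraries. Another class's markers sat in 2 of the 4 low-panel cells of P2 cortex, 2 of 34 of P7 cortex, 1 of 12 of P7 SVZ and 4 of 5 of P15 cortex. The 2 P60 libraries held high-panel cells at 23657 and 21173 CPM, within the early range.

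In P7 cortex, which had 34 low-panel and 50 high-panel cells, Foxj1 was at 66.1 CPM in the low-panel cells and 667 CPM in the others. Dnah12 was at 0 and 183 CPM, and Mia at 73.5 and 856 CPM. Fabp7, a fatty acid carrier of radial glia, was at 3839 and 1223 CPM, and Gfap, a glial filament, at 2105 and 442 CPM. Low-panel cells were therefore richer in Fabp7 and Gfap and poorer in Foxj1 and Dnah12; 35 of the 56 low-panel cells and 40 of the 111 high-panel cells also met the radial panel minimum of 2 UMIs.

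Across single ependymal cells the panel and the remaining axonemal genes, each per UMI, went together, with Spearman's rho of 0.870 (18 cells), 0.909 (84), 0.847 (25) and 0.728 (22) in the 4 early libraries. The points share their cell, library and depth, and many low-panel counts are small. With only cells of 8 or more panel UMIs the median axonemal log2 ratio to radial precursors was 2.95, and with only cells of 4 to 7 it was 0.88, in the P7 libraries.

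**Figure D3:**
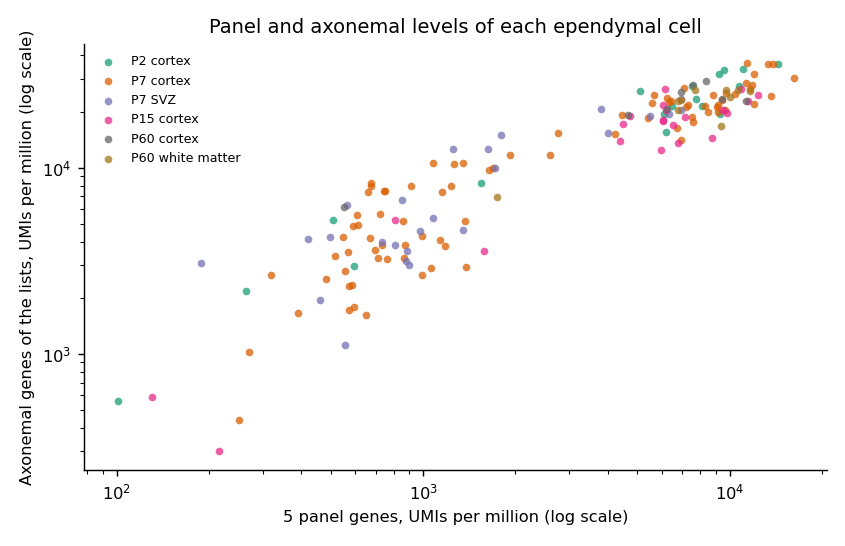
Summed axonemal CPM outside the selection panel against panel CPM for each ependymal cell (both axes log), coloured by library. Axonemal level climbs with panel level, and the lowest cells reach down to and below the radial precursor level of 912 to 1135 CPM. Other cells are spread over the levels between the lowest and the highest.

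An early multiciliation programme was present in part of the ependymal cells. Mcidas, Gmnc, Ccno, Deup1 and Cdc20b, which act when centrioles are amplified, summed to at least 3 UMIs in 36 of the 167 cells: 12 of 18 in P2 cortex, 12 of 84 in P7 cortex, 11 of 25 in P7 SVZ, 1 of 22 in P15 cortex and none at P60. Deup1 was at 382, 129.6, 305, 54.1, 22.7 and 50.9 CPM in all ependymal cells and Ccno at 242, 66.7, 216, 48.1, 0 and 34 CPM, both highest in P2 cortex. In radial precursors Deup1 was at 0.43, 1.28, 0.546 and 0 CPM and Ccno at 1.72, 0.913, 5.46 and 0 CPM in the 4 early libraries.

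P7 cortex allowed these 12 cells to be set beside 24 cells of the same library that held 8 or more panel UMIs and none of these 5 transcripts; P2 cortex and P7 SVZ had no such cells. The early cells were deeper, with a median of 14618 UMIs against 8094, and the part of depth in the choice of cells was not tested. Over all genes measured outside both gene sets, 848 of 6900 were at least 2-fold higher in the early cells, 12.3%, and 771 were at least 2-fold lower, 11.2%. Both groups are 1 library, so values are sums with no replicate check.

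Of the G2 and M phase genes 16 of 24 measured were at least 2-fold higher in the early cells, and of the S phase genes 4 of 16. Cdk1, the mitotic kinase, was at 276 against 9.96 CPM. Ccnb1, its cyclin partner, which is on neither list, was at 167 against 4.98 CPM. Top2a, which untangles chromosomes, was at 276 against 39.8 CPM. Yet Mki67, the usual mark of proliferating cells, was at 5.75 against 14.9 CPM, and Ccna2 at 5.75 against 4.98 CPM. The replication-linked Pclaf was at 11.5 against 24.9 CPM and the histone Hist1h2ap at 11.5 against 64.7 CPM.

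These transcripts were also counted cell by cell. A Cdk1 UMI was found in 9 of 12 early cells of P2 cortex, 11 of 12 of P7 cortex and 6 of 11 of P7 SVZ, and an Mki67 UMI in 2, 1 and 0 of them. Radial precursors of these libraries had Mki67 at 46, 70.8, 121 CPM. Ccna1, a cyclin better known from the germline, and Crip3, named here after their values were seen, had the largest ratios of all measured genes, at 822 against 4.98 CPM and 333 against 4.98 CPM.

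Regulators and building blocks of centrioles were set beside them. Myb, a transcription factor of early multiciliated cells, was at 333 against 44.8 CPM, and Plk4, the kinase that starts new centrioles, at 69 against 0 CPM. Foxj1 was at 925 against 483 CPM and the cell cycle inhibitor Cdkn1a at 373 against 154 CPM. Dynein assembly genes had 6 of 12 at least 2-fold higher, while outer arm genes had 0 of 15 and central pair genes 1 of 19. Summed axonemal RNA was 24346 CPM in the early cells and 17102 CPM in the others.

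Among the genes lower in the early cells were members of several lists. Radial glial genes had 16 of 23 at least 2-fold lower and surface and fluid-handling genes 11 of 22. S100b, a calcium-binding protein of mature ependyma and astrocytes, was at 0 against 349 CPM, and Mia at 345 against 1145 CPM. Aqp4, the water channel, was at 40.2 against 488 CPM. Immediate early genes had 11 of 20 lower.

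**Figure D4:**
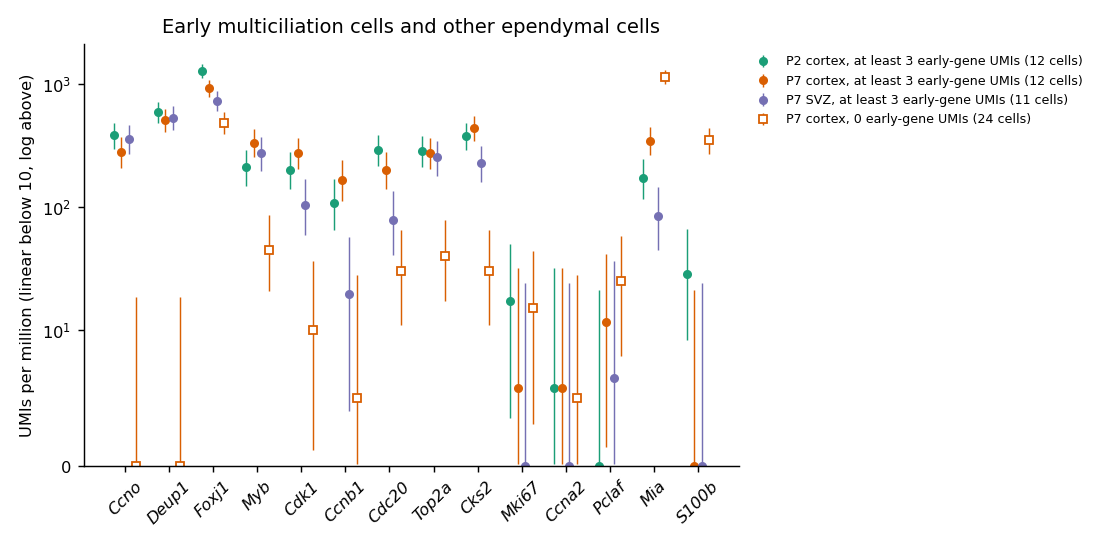
CPM (axis linear below 10 and logarithmic above) in summed ependymal cells with at least 3 early programme UMIs (filled; P2 cortex, P7 cortex and P7 SVZ) and in P7 cortex cells with none (open); bars are exact Poisson 95% intervals, for counting error only. In P7 cortex the intervals of Cdk1, Ccnb1 and Top2a lie apart between filled and open symbols, and those of Mki67 and Ccna2 overlap.

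To compare libraries at equal depth each cell was thinned to 2000 UMIs, and a cell counted as early when it kept at least 1 UMI of the 5 genes. The share was 55.6% in P2 cortex, 17.9% in P7 cortex, 44.0% in P7 SVZ, 19.0% in P15 cortex, 12.5% in P60 cortex and 30.0% in P60 white matter; without thinning it was 77.8, 34.5, 64.0, 31.8, 12.5 and 60%. In radial precursors of the 4 early libraries the thinned share was 0.351, 0.772, 2.13 and 0%, and in astrocytes of any library at most 1.79%. Thinning left out 1 P15 cell as too shallow. Early and adult libraries overlapped, with means of 34.1% ± 18.7 (SD, n = 4) and 21.3% ± 12.4 (SD, n = 2; two-sided exact permutation p = 0.533, smallest possible 0.133). The adult values are 1 of 8 and 3 of 10 cells.

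The share of cells with at least 3 S or G2 and M phase UMIs after thinning was 72.2, 73.8, 76.0, 81.0, 75 and 100% in ependymal cells. It overlapped the 53.2 to 77.1% of radial precursors in the 4 early libraries and lay above that of astrocytes, which was 60.1, 51.1, 64.5, 29.5, 25.2 and 29.0% in the same 6 libraries. The early mean was 75.7% ± 3.80 (SD, n = 4) and the adult mean 87.5% ± 17.7 (SD, n = 2), with p = 0.400 in the same exact permutation test. Without thinning the share was 95.5% or more in every library. The share counts any 3 UMIs of 91 listed genes, so it does not mark a cell as dividing. In the 24 P7 cortex cells above without early programme UMIs, Nuf2 was at 214 and Ckap5 at 269 CPM. Radial precursors of that library had 40.0 and 163 CPM. Mki67 was lower in these ependymal cells, at 14.9 against 70.8 CPM, as was Cdk1, at 9.96 against 135 CPM.

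Adult and early ependymal cells were compared as sums per library in the 6 libraries with at least 5 of them, 4 early and 2 adult (44117 and 58895 UMIs in the adult sums, 166315 to 779215 in the early ones). In edgeR's quasi-likelihood test 0 of 4805 genes passed an adjusted p of 0.05, 0% called; 546 genes (11.4%) had an unadjusted p below 0.05, and DESeq2 called 25 of 4798 genes (0.521%). The Y-linked genes Eif2s3y, Ddx3y, Uty and Kdm5d summed to 3850 to 4483 UMIs in each early library and to at most 1 in each adult library, so stage cannot be told apart from the sex of the mice. Ependymal cells themselves held 14 to 75 such UMIs in each early library and 0 at P60.

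Axonemal genes were next ordered by library. Of 87 tested, 25 had both adult values above all 4 early values and 9 had both below; over all 4805 genes these shares were 11.5% and 16.4%. The median log2 difference of the axonemal genes was 0.43, against -0.13 over all genes with TMM scaling and -0.03 with upper-quartile scaling. Outer arm genes had 6 of 13 with both adult values above, central pair genes 6 of 15 and dynein assembly genes 0 of 8, with 3 of 8 below. None of these genes passed the adjusted edgeR test, and DESeq2 called 1 axonemal gene, Nme8. Of the 56 cells of 4 to 7 panel UMIs, which held little axonemal RNA, 1 came from P60. In cells of 8 or more panel UMIs summed axonemal RNA was 23657 and 21173 CPM at P60, within the early 14958 to 25642 CPM. The ordering of the lists was not repeated in those cells, and the part of low-panel cells in it was not tested.

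Sntn, at 3.61, 62.9, 0, 132, 431 and 339.6 CPM, was higher in both P60 libraries than in any early one, with a log2 difference of 2.97 (SE 1.06, edgeR adjusted p = 0.362). Dnah12, at 148, 119, 141, 216, 385 and 696 CPM, had a log2 difference of 1.77 (SE 0.43, edgeR adjusted p = 0.240). Nme8, an outer arm thioredoxin, was at 0, 20.5, 3.72, 12, 113 and 187 CPM (log2 difference 3.78, SE 0.89, edgeR adjusted p = 0.240; DESeq2 adjusted p = 0.0132). In each of these genes the adult values did not overlap the early ones, and the spread between early libraries was wide.

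The share of low-panel cells moves with stage, since only 1 of the 56 came from P60. Restricted to cells of 8 or more panel UMIs, Sntn was at 4.94, 96.6, 0, 212, 604 and 339.6 CPM, Dnah12 at 202, 183, 213, 346, 541 and 696 CPM and Nme8 at 0, 31.6, 5.91, 19.2, 159 and 187 CPM, so the adult values still lay above the early ones. Without the cells that carry other classes' markers they were at 4.57, 66.8, 0, 252, 604 and 374 CPM, 187, 124, 160.2, 321, 541 and 767 CPM and 0, 21.8, 4.71, 22.9, 159 and 216 CPM. Calml4, a calmodulin-like protein, was at 105, 176, 81.8, 421, 1020.0 and 357 CPM in all cells, and at 133, 187, 18.8, 722, 509 and 374 CPM without those cells. Its high P60 cortex value rested on the cell with choroid plexus RNA.

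The smallest adjusted p of the 4805 genes was that of Hspb1, a small heat shock protein of the immediate early and stress list. It was at 3.61, 19.3, 3.72, 18, 408 and 289 CPM, with a log2 difference of 4.79 (SE 0.61, edgeR adjusted p = 0.0504). Its adult values lay far above every early value, and upper-quartile scaling, DESeq2 and the fit without P15 cortex called it. Chchd10 was at 2102, 1757, 1186, 2819.9, 5168 and 4822 CPM (log2 difference 1.30, SE 0.43, edgeR adjusted p = 0.332) and S100b at 18, 175, 0, 523, 725 and 730.1 CPM (edgeR adjusted p = 0.539). Without the cells that carry other classes' markers Hspb1 was at 4.57, 19.1, 4.71, 22.9, 509 and 315 CPM, Chchd10 at 2614, 1809, 1084, 4468, 5501 and 5391 CPM and S100b at 22.8, 151, 0, 836, 1018 and 807 CPM. Only for S100b did early and adult values then overlap.

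DESeq2 called 7 genes lower in the adult libraries, and edgeR with all libraries called none of them. Tubb2b and Fabp7, which are on the fixed lists, are given here, and their adult values lay below the early ones. Tubb2b, a tubulin of young neurons and glia, was at 1424, 778, 982, 162, 0 and 0 CPM (edgeR adjusted p = 0.182; DESeq2 adjusted p = 0.00116; edgeR adjusted p = 0.0142 without P15 cortex). Fabp7 was at 357, 2137, 1796, 234, 68 and 50.9 CPM (edgeR adjusted p = 0.260; DESeq2 adjusted p = 0.00911). Of the tubulin list, which holds Tubb2b, 3 of 11 genes tested had both adult values below all early ones (27.3%, against 16.4% of all genes). Fabp7 is on the lipid carrier list, with 2 of 8 below (25%), and on the radial glial list, with 3 of 21 below (14.3%). Of 8 astrocyte markers, a list that holds neither gene, none had both adult values below. Of 17 G2 and M phase genes tested 7 had both adult values below. The summed level of microglial markers overlapped between stages, at 18.03 to 1293 CPM in early and 363 to 3498 CPM in adult ependymal sums. Without the 15 cells above it was 22.8 to 149 against 59.0 to 382 CPM. Of 10 microglial markers tested, 1 had both adult values above all early ones (10%, against 11.5% of all genes). Higher adult levels with an unadjusted edgeR p below 0.05 were found for 6 of the 10, against 235 of all 4805 genes. The part of microglial RNA in the result was not tested.

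The stage effect was also set against that in astrocytes of the same libraries. In the edgeR test of the difference between the effects, with the library as a block, 0 of 11082 genes passed an adjusted p of 0.05 (0% called; 918 had an unadjusted p below 0.05). No stage difference can therefore be called particular to ependymal cells.

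**Figure D5:**
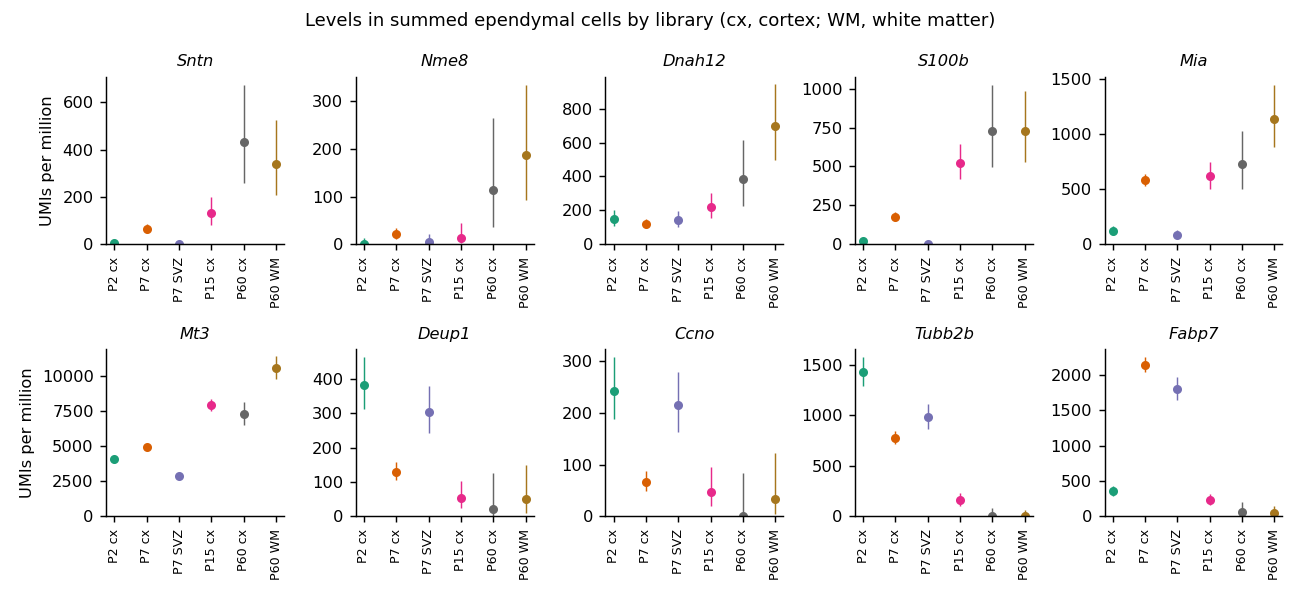
CPM of 10 genes in summed ependymal cells of the 6 libraries that hold them; bars are exact Poisson 95% intervals, for counting error only, and each axis starts at 0. Sntn, Nme8 and Dnah12 are higher in both P60 libraries than in any early library, and Deup1 and Ccno are highest in P2 cortex and P7 SVZ.

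The 2 libraries of P7 differ in region and in strain, with 84 ependymal cells from CD1 cortex and 25 from C57BL/6 SVZ, and with 1 library each there is no test. The intervals given are exact and cover counting error only. Early programme genes together had a ratio of 2.82 (2.27 to 3.49) of SVZ over cortex. Ccno was at 216 against 66.7 CPM, a ratio of 3.23 (2.18 to 4.79), Deup1 at 305 against 129.6 CPM, a ratio of 2.35 (1.74 to 3.18) and Mcidas at 55.8 against 18 CPM, a ratio of 3.1 (1.4 to 6.94). Foxj1 did not differ beyond counting error, at 443 against 457 CPM, a ratio of 0.969 (0.78 to 1.2).

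Other genes went either way. Fam183b was at 119 against 843 CPM, a ratio of 0.141 (0.0957 to 0.201). Mia was at 85.5 against 583 CPM, a ratio of 0.147 (0.0921 to 0.223). S100b had 0 UMIs in the SVZ cells against 136 in the cortex cells, and Sntn 0 against 49. Hes5 was higher, at 807 against 153 CPM, a ratio of 5.28 (4.21 to 6.67). Summed doublet and lumen genes were at 4202 CPM in the SVZ cells and 7101 CPM in the cortex cells, and outer arm genes at 770 and 1163 CPM. Inner arm genes were at 1257 and 1140 CPM and central pair genes at 1450.4 and 1493 CPM, with Cfap54 of the central pair at 190 and 105 CPM and Dnah12 at 141 and 119 CPM. Gfap did not differ beyond counting error, at 1034 against 1023 CPM, a ratio of 1.01 (0.879 to 1.16). Of the 25 SVZ cells 1 held most of the choroid plexus RNA named above. P60 white matter was not compared with P60 cortex, since both held fewer than 20 ependymal cells.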

How the data were processed

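The authors' deposited values are raw UMI counts of 31053 genes in each barcode. Cell Ranger 3.0.2 made them, per the file headers, and the build was mm10, per the submitters' processing notes. Neither the annotation release nor the use of strand in counting is given in the sources used here. Library totals ran from 10074763 to 45668007 UMIs over 25747 barcodes. The limits of 500 genes and 10% mitochondrial UMIs removed 1304 and 3441 barcodes. Doublets were called per library with scrublet in scanpy 1.11.5 (expected rate 0.06) and kept.

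Counts of ependymal cells, radial precursors and astrocytes (at least 4 UMIs of Slc1a2, Gja1, Aqp4, Slc7a10 and Agt, at most 1 of either other panel) were summed per library. CPM is UMIs after such a sum is scaled to 1000000; a count of 0 allows up to 3 counts, or 3.85 to 68.0 CPM. Against radial precursors a gene was measured when its CPM reached 10. Stages were compared with edgeR 4.0.16 in R 4.3.3 (TMM, filterByExpr, quasi-likelihood F test, Benjamini-Hochberg), with DESeq2 1.42.0 as an alternative. The planned minimums of 20 or 10 cells per library left fewer than 2 adult libraries, so a minimum of 5, chosen after the cell numbers were seen, was used. Shares were compared by exact permutation over libraries, and intervals are exact. The scripts were tested on simulated data. Promoters are RefSeq's (GRCm38.p6).

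Named were the 25 genes highest and the 10 lowest against radial precursors with 1 direction in every library, genes called by stage (none), the 15 most abundant genes and examples of the 22 fixed lists; Ccna1, Crip3 and Aqp4 within the early cells were named after their values were seen. Ccnb1 and Cdkn1a, also given for the early cells, are on no fixed list and were named outside these rules. The cells, lists and tests were chosen with earlier results of these data known. A few genes that meet these rules are not reported here. Alternatives are given at the end. Python 3.11.15, numpy 2.4.6, scipy 1.17.1, pandas 2.3.3 and matplotlib 3.10.9 were used.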

Additional observations from a re-analysis of the deposited data

Results flagged for a closer look

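The 4 early libraries were searched for a value far from the other 3 in 26 measures; 3 had a gap over range above Dixon's 95% limit, which chance passes in about 1 of 20. The share of ependymal cells was 2.03% in P7 cortex and 0.548 to 0.767% in the other early libraries. Central pair genes summed to 1749 CPM in P2 cortex ependymal cells and to 1450.4 to 1493 CPM in the others. Intraflagellar transport genes summed to 9089 CPM in P2 cortex and to 4546 to 5108 CPM in the others, of which Dynll1, a light chain shared with many other complexes, held 3540.5 CPM in P2 cortex.

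Among barcodes left out of every comparison, 9 of the 3441 over the mitochondrial limit held at least 4 panel UMIs, the highest 64, against none of the microglial cells that served as background.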

How the results depend on the processing

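Raising the panel minimum to 8 UMIs left 111 ependymal cells and thinning to 2000 UMIs left 93. The number of genes called by stage was 0 in the main test, 206 without a filter on low counts, 25 with DESeq2, 1 each with upper-quartile scaling, with at least 8 panel UMIs, without doublet calls and without cells carrying other classes' markers, and 0 to 11 when 1 library was left out (11 without P15 cortex). The difference from the astrocyte effect gave 1 call with upper-quartile scaling and 0 to 32 with 1 library left out (32 without P15 cortex, 1 without P2 cortex). The cause was not tested. The median axonemal log2 ratio to radial precursors, 2.49, was 2.95 at 8 or more panel UMIs, 0.88 at 4 to 7, 4.25 with a pseudocount of 1 CPM, which weighs low genes more, and 2.38 to 2.57 with 1 library left out. The stage difference in the share of ependymal cells was -0.751 percentage points in the main setting, -0.903 to -0.409 with 1 library left out (-0.409 without P7 cortex), -0.296 thinned to 2000 UMIs (exact permutation p = 0.286), -0.402 at 8 or more panel UMIs and -1.13 at 3 or more. That in the early programme share ran from -25.4, at 8 or more panel UMIs, to -4.12. The difference in the cycling share ran from -0.746, reversed without P60 white matter, to 24.3. Of 152 alternative values for 19 named genes, 144 kept direction and side of the threshold, 7 passed it, and 1 reversed; 38 of them leave 1 adult library, whose sum is assumed to vary like the early ones, and staying short of the threshold there shows no stability. Of the other 114, 107 kept both and 7 passed. The 19 genes include Ccdc153 and Tmem212, whose own UMIs selected the cells, and Dnah5 and Spag17, which have no values above. The reversed one was Ifitm3, an interferon-induced membrane protein, at -0.0785 without P60 white matter and 1.57 without P60 cortex. No paired analysis was possible because replicate numbers were assigned in accession order and pair no libraries. The adult sums, of 8 and 10 cells, limit what the stage comparison can detect.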

Other observations

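Regional transcription factors varied between libraries. Given as P2 and P7 cortex, P7 SVZ, P15 and P60 cortex, and P60 white matter, Emx1, a factor of the dorsal pallium, was at 155, 87.3, 40.9, 60.1, 68 and 67.9 CPM in ependymal cells, and the homeobox factor Meis2 at 256, 319.6, 469, 216, 45.3 and 204 CPM. Otx2, a choroid plexus factor, was at 0, 1.28, 59.5, 6.01, 22.7 and 0 CPM, and both higher values came from libraries with a cell rich in Ttr. Of the 12 patterning genes measured against radial precursors, none was 2-fold higher or lower in all 3 libraries.

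B2m, the light chain of class I antigen presentation, was at 32.4, 61.6, 33.5, 150.3, 68 and 289 CPM in the same order and Ifitm3 at 79.3, 493, 298, 722, 431 and 1290.4 CPM. Dbi, a binder of acyl-CoA and of a GABA receptor site, was the second most abundant transcript of the pooled ependymal cells after Malat1, at 11442 CPM against 7282 CPM in radial precursors. Hsp90aa1, a chaperone, was at 3545 CPM against 974 CPM.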
